A study of Malus domestica with 18 samples.

Results

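Tor and Raptor were 2 of the 18 target genes that RT-qPCR measured in apple (Malus domestica) embryonic axes, beside the reference genes Sar1 and Pdi. They were taken by gene name. Dry seeds were aged in wet sand at 33°C for 7, 14 or 21 days, after which the embryos were isolated. NO-treated embryos were fumigated for 3 h with vapors of acidified nitrite (14.5 mM NaNO2 in 0.2 M HCl), while control embryos came from seeds aged in the same way and were not fumigated. All embryos were then cultured in water for 48 h before the axes were cut. This gave 6 groups, namely NO-treated and control axes at each of the 3 aging times, with 3 biological replicates each and 18 samples in all. Each sample was a pool of axes, unaged seeds were not analysed here, and none of the 20 genes marks the axis or another seed tissue, so the tissue label could not be checked.

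Tor is a serine/threonine protein kinase that promotes growth, protein synthesis and ribosome formation when nutrients and energy are at hand, and restrains autophagy. Raptor is its regulatory partner, which binds substrates and brings them to the kinase. In plants, Tor, Raptor and Lst8 form the Tor complex. Lst8 was not among the genes measured. Transcript levels of the subunits do not report kinase activity.

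The assays are shown by their primers, since these define what was counted as Tor or Raptor transcript. In each primer, written 5′ to 3′, the capitals mark the last 5 bases, from which the polymerase extends.
Tor forward: atctggtggagcagcTTTGC
Tor reverse: tcgttataccgttctgcATCAC
Raptor forward: tgaatgctgttgtggATTGG
Raptor reverse: gctacaatctgatgaaGAAGG
The Tor primers were 20 and 22 bases long with 55.0% and 45.5% G and C, and the Raptor primers 20 and 21 bases long with 45.0% and 42.9%. The primer list and the deposited table name 3 gene models for each assay, MD10G1112000, MDP0000177219 and MDP0000258439 for Tor and MDP0000061332, MDP0000061330 and MDP0000209431 for Raptor. Transcripts of these models could not be told apart. None of the 6 identifiers matched the RefSeq gene table used here, so no genome position is given.

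Both deposited kinds of value were used. The quantification cycle (Cq) is the cycle at which the product crossed the detection threshold, so a higher cycle means less template. Relative expression is the authors' ratio to the reference genes, with the controls of each aging time averaging about 1. It shows the effect of NO on each day, but it cannot be compared between days. The comparison used limma on log2 relative expression, fitted to the 18 samples together, with Benjamini-Hochberg adjustment over the target genes and a threshold of 0.05.

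NO fumigation was accompanied by a lower Tor transcript level after every aging time and by a lower Raptor transcript level after 7 and 21 days. After 14 days only Tor was called lower. The axes are a mixture of cells, and fewer cells with the transcript cannot be told apart from less transcript per cell.

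The relative expression of Tor after 7 days was 0.266, 0.353 and 0.305 in NO-treated axes, against 1.08, 1.13 and 0.826 in control axes. Every NO-treated sample lay well below every control. The mean was 0.308 ± 0.0437 with NO and 1.01 ± 0.161 in the control (SD, n = 3 each), a log2 fold change of -1.71 (standard error 0.18, adjusted p = 9.11e-08 from limma). The background was 16.7% of the 18 genes called lower with NO at this time, and Tor had the lowest fold change of all.

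For Raptor after 7 days the relative expression was 0.268, 0.398 and 0.459 in NO-treated axes, against 0.983, 0.991 and 1.03 in control axes. The groups did not overlap, and the spread was wider with NO than in the control. The mean was 0.375 ± 0.0979 with NO and 1.0002 ± 0.0233 in the control (SD, n = 3 each), a log2 fold change of -1.45 (standard error 0.16, adjusted p = 1.31e-07 from limma). Raptor thus ranked next to Tor among the 18 genes, whose median log2 fold change was 0.12.

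After 14 days Tor had a relative expression of 0.306, 0.262 and 0.182 in NO-treated axes, against 1.06, 0.819 and 1.16 in control axes. The lowest Tor value of the whole table, 0.182, belonged to NO replicate 3. The mean was 0.250 ± 0.0630 with NO and 1.01 ± 0.173 in the control (SD, n = 3 each), a log2 fold change of -2.03 (standard error 0.18, adjusted p = 1.34e-09 from limma). At this time 27.8% of the 18 genes were called lower with NO, and only Pimt, which encodes a repair enzyme of damaged proteins, had a lower fold change than Tor.

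Raptor after 14 days stood at 1.05, 0.769 and 0.867 in NO-treated axes, against 1.16, 0.864 and 0.996 in control axes. The groups overlapped. The mean was 0.894 ± 0.141 with NO and 1.01 ± 0.149 in the control (SD, n = 3 each), and the log2 fold change of -0.17 did not pass the threshold (95% confidence interval -0.51 to 0.17, adjusted p = 0.392 from limma). With Sar1 as the only reference gene this comparison passed the threshold, with a log2 fold change of -0.39 (adjusted p = 0.0477).

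The 21-day axes had Tor at 0.320, 0.411 and 0.317 with NO, against 1.14, 1.05 and 0.842 without it. Again no NO-treated sample reached the lowest control. The mean was 0.349 ± 0.0534 with NO and 1.01 ± 0.151 in the control (SD, n = 3 each), a log2 fold change of -1.53 (standard error 0.18, adjusted p = 1.99e-07 from limma). As at 14 days, 27.8% of the 18 genes were called lower.

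Raptor after 21 days was at 0.264, 0.272 and 0.260 in NO-treated axes, against 1.17, 0.996 and 0.855 in control axes. The NO-treated samples were nearly equal to each other and far below the controls. The mean was 0.265 ± 0.00648 with NO and 1.01 ± 0.160 in the control (SD, n = 3 each). The log2 fold change of -1.92 (standard error 0.16, adjusted p = 1.87e-09 from limma) was the lowest of the 18 genes on relative expression, with Tor next to it. On levels from cycles against Sar1 and Pdi, the chaperone gene Hsp70b was lowest (-2.52, adjusted p = 3.69e-16 from limma), and Raptor and Tor took ranks 2 and 3. The median over all genes was -0.06 at this time.

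**Figure D1:**
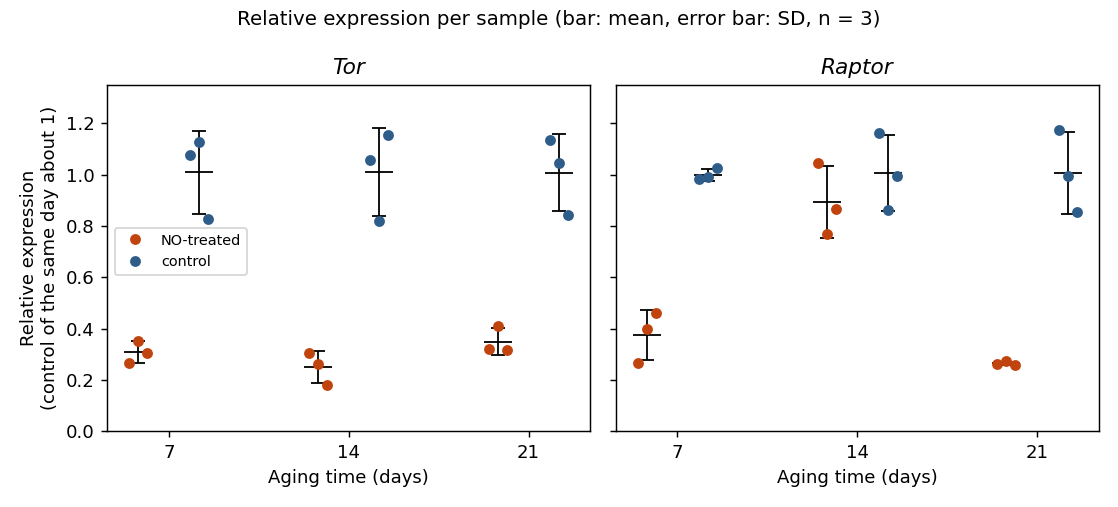
Relative expression of Tor and Raptor (y axis, ratio, control of the same day about 1) in NO-treated and control axes at each aging time (x axis, days), with a point for each sample, a horizontal tick for the mean and an error bar for the SD. The NO-treated samples of Tor lie between 0.182 and 0.411 at all times, while those of Raptor reach 1.05 at 14 days.

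In the exact permutation test of 3 against 3 samples (two-sided), the 5 comparisons without overlap gave p = 0.1, the smallest that this design allows, and Raptor at 14 days gave p = 0.5. When the NO labels were permuted within each aging time (exact, two-sided, 8000 arrangements), the mean log2 difference over the 3 times was -1.76 for Tor (p = 0.00025, the smallest possible, and 0.00075 adjusted over the 3 values tested in this way) and -1.18 for Raptor (p = 0.00125, adjusted p = 0.00187). All 9 NO-treated samples had less Tor than the lowest control of their day.

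The effect of NO on Raptor depended on the aging time. Its log2 fold change with NO was -1.45 at 7 days, -0.17 at 14 days and -1.92 at 21 days, so the lowering was smallest at 14 days. In limma, the NO effect at 14 days minus that at 7 days was 1.28 (standard error 0.23, adjusted p = 8.00e-05). The NO effect at 21 days minus that at 14 days was -1.74 (standard error 0.23, adjusted p = 9.40e-07). The NO effects on Raptor at 21 and 7 days differed by -0.46 (95% confidence interval -0.95 to 0.02, adjusted p = 0.151). In these 3 tests of the difference, 61.1% of the 18 genes were called for 14 against 7 days, 50.0% for 21 against 14 days and 16.7% for 21 against 7 days.

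For Tor no such difference passed the threshold. The NO effect at 14 days minus that at 7 days was -0.33 (95% confidence interval -0.86 to 0.21, adjusted p = 0.303 from limma). The effect at 21 days minus that at 7 days was 0.18 (95% confidence interval -0.36 to 0.71, adjusted p = 0.628), and minus that at 14 days it was 0.50 (95% confidence interval -0.03 to 1.04, adjusted p = 0.113).

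**Figure D2:**
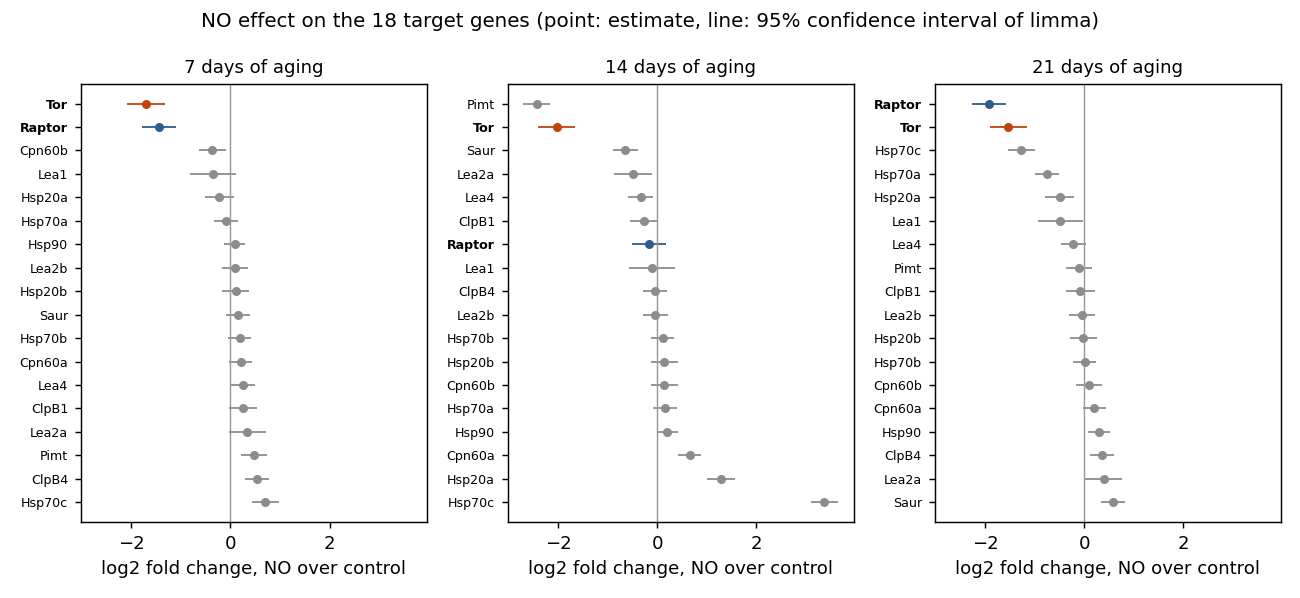
Log2 fold change of NO over control (x axis) for each of the 18 target genes (y axis, sorted) at 7, 14 and 21 days of aging, with the limma estimate as a point and its 95% confidence interval as a line. On this relative expression Tor is the lowest gene at 7 days with -1.71 and Raptor at 21 days with -1.92 (Hsp70b is lowest at 21 days on levels from cycles), while the interval of Raptor at 14 days spans 0.

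These values rest on the reference genes. The relative expression of Tor and Raptor did not follow the deposited cycles of Sar1 and Pdi exactly. The normalizer that it implies differed from the mean cycle of Sar1 and Pdi by a root mean square of 0.239 for Tor and 0.214 for Raptor on the log2 scale, but by only 0.0359 between Tor and Raptor themselves. The deposited scale does not have 1 normalizer for all genes. Within a root mean square of 0.05, 8 of the 18 genes, Saur (0.0066) and Pimt (0.0092) among them, followed Sar1 and Pdi, 9 genes including Tor and Raptor shared the normalizer of Tor, and 1, Hsp70b, followed neither (1.09 from Sar1 and Pdi). Ranks and medians over the 18 genes on relative expression therefore set genes with different normalizers side by side. From cycles, Tor and Raptor kept ranks 1 and 2 at 7 days and ranks 2 and 7 at 14 days, with Pimt again the lowest at 14 days. NO effects were therefore also computed from cycles under 5 other normalizers. With Sar1 and Pdi the log2 fold change of Tor was -2.04 at 7 days, -2.16 at 14 days and -1.79 at 21 days, and that of Raptor was -1.73, -0.26 and -2.12. On these levels 22.2%, 27.8% and 44.4% of the 18 genes were called lower at 7, 14 and 21 days, and 22.2%, 16.7% and 11.1% higher. Over all 6 normalizations, Tor was called lower at every time, with a range of -2.16 to -1.71 at 7 days, -2.29 to -2.03 at 14 days and -1.90 to -1.25 at 21 days. Raptor was called lower in all 6 at 7 days (-1.85 to -1.45) and 21 days (-2.23 to -1.58), and in 1 of 6 at 14 days (-0.39 to -0.13).

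**Figure D3:**
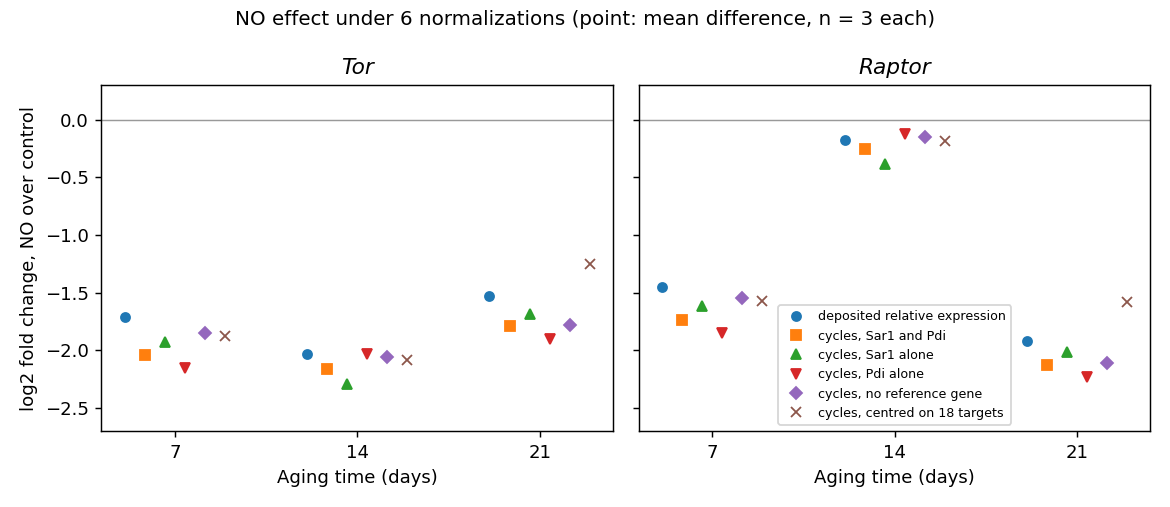
Log2 fold change of NO over control (y axis) for Tor and Raptor at each aging time (x axis, days), with 1 point for each of 6 normalizations. All points lie below 0, and those of Raptor at 14 days lie between -0.39 and -0.13.

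The cycles themselves show the shift without any reference gene. Tor crossed the threshold at 27.8, 27.7 and 28.1 cycles in NO-treated axes at 7 days, against 25.9, 26.0 and 26.2 cycles in control axes. At 14 days it did so at 29.9, 30.0 and 30.4 cycles with NO, against 28.0, 28.1 and 28.0 cycles in the control, and at 21 days at 28.1, 27.9 and 28.0 cycles, against 26.2, 26.0 and 26.5 cycles. The delay with NO averaged 1.85, 2.06 and 1.78 cycles at 7, 14 and 21 days. Over the same samples the mean cycle of Sar1 and Pdi moved with NO by -0.19, -0.10 and -0.01 cycles. Taken singly, Sar1 moved by -0.075, -0.23 and 0.10 cycles and Pdi by -0.31, 0.03 and -0.12 cycles. The mean shifts of the 2 reference genes thus had opposite signs at 14 and 21 days. Pdi at 14 days and Sar1 at 21 days moved by less than the SD of their replicates, and these shifts were not tested.

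Raptor crossed at 25.8, 25.5 and 25.5 cycles in NO-treated axes at 7 days, against 24.0, 24.2 and 23.9 cycles in control axes. At 14 days the cycles were 25.1, 25.5 and 25.2 with NO, against 25.0, 25.1 and 25.3 in the control. At 21 days they were 26.9, 27.0 and 26.8 with NO, against 24.7, 24.6 and 25.0 in the control. The delay was 1.54 cycles at 7 days, 0.15 cycles at 14 days and 2.11 cycles at 21 days.

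The course over the aging time was taken from the cycles, as the mean cycle of Sar1 and Pdi minus that of the gene, with 1 doubling per cycle and the 7-day control set to 1. Averaged over Sar1 and Pdi, the cycle was 23.3 ± 0.0914 at 7 days, 24.1 ± 0.0607 at 14 days and 24.0 ± 0.183 at 21 days in NO-treated axes (SD, n = 3 each). In control axes it was 23.5 ± 0.135, 24.2 ± 0.0876 and 24.0 ± 0.0328 at these times. These genes thus crossed later at 14 and 21 than at 7 days, and a change in the reference genes moves every level between days. Levels under other normalizers are given where they alter a result. The deposited table also holds the authors' control values on a 7-day scale, which are given beside these levels. For Tor and Raptor their changes between days lay close to those of the cycles without a reference gene. The normalizations counted for control axes hold both.

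In control axes Tor had a minimum at 14 days. Its level was 1.20, 0.918 and 0.910 at 7 days, 0.400, 0.390 and 0.467 at 14 days and 1.26, 1.42 and 1.05 at 21 days. The 14-day samples lay apart from the others, while those at 7 and 21 days overlapped. Tor was lower at 14 than at 7 days, by limma, with a log2 fold change of -1.26 (standard error 0.18, adjusted p = 3.80e-07), where 77.8% of the 18 genes were called and 38.9% were lower. It was higher at 21 than at 14 days, with a log2 fold change of 1.56 (standard error 0.18, adjusted p = 7.43e-09), where 88.9% were called and 38.9% were higher. Both calls held under each of 6 normalizations, with ranges of -1.99 to -0.93 and of 1.37 to 1.78. At 21 against 7 days, where 72.2% of the genes were called, the log2 fold change was 0.30 (95% confidence interval -0.07 to 0.67, adjusted p = 0.135), and its sign turned to -0.20 without a reference gene and in the deposited 7-day-scaled values, and to -0.02 with Sar1 alone. On the deposited scale Tor stood at 0.263 ± 0.0450 at 14 days and 0.878 ± 0.131 at 21 days (SD, n = 3 each).

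In control axes Raptor showed no time that stood apart on levels against Sar1 and Pdi. Its level was 1.09, 0.808 and 1.13 at 7 days, 0.839, 0.786 and 0.768 at 14 days and 0.905, 0.938 and 0.744 at 21 days. All 3 times overlapped on these levels. The change at 14 against 7 days was -0.33 on the log2 scale (standard error 0.15, adjusted p = 0.0415 from limma). Leaving out either replicate 1 or replicate 3 of the 7-day controls ended this call (-0.26 with adjusted p = 0.133 and -0.24 with 0.185), and so did leaving out replicate 2 or 3 of the 14-day controls (-0.32 with 0.0867 and -0.30 with 0.119). Centred on the 18 target genes it vanished, with a value of 0.00364, whereas without a reference gene it was -1.05. That centre is the mean of the 18 genes, Raptor included. It also holds the chaperone gene Hsp70c, which had the lowest change of all (-4.64 against Sar1 and Pdi). At 21 against 7 days the log2 fold change of Raptor was -0.22 (95% confidence interval -0.52 to 0.08, adjusted p = 0.168), and at 21 against 14 days it was 0.11 (95% confidence interval -0.19 to 0.40, adjusted p = 0.496). On the deposited 7-day scale Raptor stood at 0.483 ± 0.0714 at 14 days and 0.608 ± 0.0962 at 21 days (SD, n = 3 each), log2 changes of -1.06 (adjusted p = 2.83e-06) and -0.73 (adjusted p = 1.34e-04) from 7 days. On that scale the 7-day controls (0.983 to 1.03) lay above every control of 14 days (0.414 to 0.557) and 21 days (0.516 to 0.708). Over 6 normalizations the control level of Raptor was called different at 14 and 7 days in 4, and at 21 and 7 days in 3, so whether it changed with aging depended on the normalizer. Of these 6, the deposited 7-day scale and the cycles without a reference gene hardly differed (-1.06 and -1.05 at 14 against 7 days). They were counted apart, so the calls on them are not separate.

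In NO-treated axes Tor likewise had its minimum at 14 days. It was at 0.251, 0.289 and 0.199 of the 7-day control at 7 days, at 0.111, 0.104 and 0.0697 at 14 days and at 0.290, 0.437 and 0.357 at 21 days. The 14-day samples were again the lowest, and the largest one was below the smallest of either other time. The log2 fold change was -1.38 at 14 against 7 days (standard error 0.18, adjusted p = 5.79e-08 from limma, with 66.7% of the 18 genes called and 44.4% lower) and 1.94 at 21 against 14 days (standard error 0.18, adjusted p = 7.92e-11, with 94.4% called and 33.3% higher). At 21 against 7 days, where 77.8% were called, it was 0.55 (standard error 0.18, adjusted p = 0.00706). This call did not survive the removal of replicate 3 of the 7-day NO-treated axes (0.41, adjusted p = 0.0707) or of replicate 2 of the 21-day ones (0.40, adjusted p = 0.0713), nor the use of Sar1 alone (0.22, adjusted p = 0.296), and its sign turned to -0.13 without a reference gene.

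Raptor in NO-treated axes had its maximum at 14 days. It was at 0.261, 0.336 and 0.311 of the 7-day control at 7 days, at 0.747, 0.603 and 0.658 at 14 days and at 0.173, 0.209 and 0.211 at 21 days. No time overlapped with another. The log2 fold change was 1.15 at 14 against 7 days (standard error 0.15, adjusted p = 4.43e-08 from limma, with 22.2% of the 18 genes called higher), -1.76 at 21 against 14 days (standard error 0.15, adjusted p = 7.47e-12, with 61.1% called lower) and -0.61 at 21 against 7 days (standard error 0.15, adjusted p = 4.55e-04, with 55.6% called lower). The rise to 14 days was called under each of 5 normalizations (0.33 to 1.52), and so was the fall to 21 days (-1.80 to -1.16). The difference between 21 and 7 days no longer passed when Pdi was the sole reference gene (-0.28, adjusted p = 0.106) and turned to 0.23 when centred on the 18 target genes. Hsp70c, which is part of that centre, had the lowest change of the 18 genes here (-4.93 against Sar1 and Pdi).

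**Figure D4:**
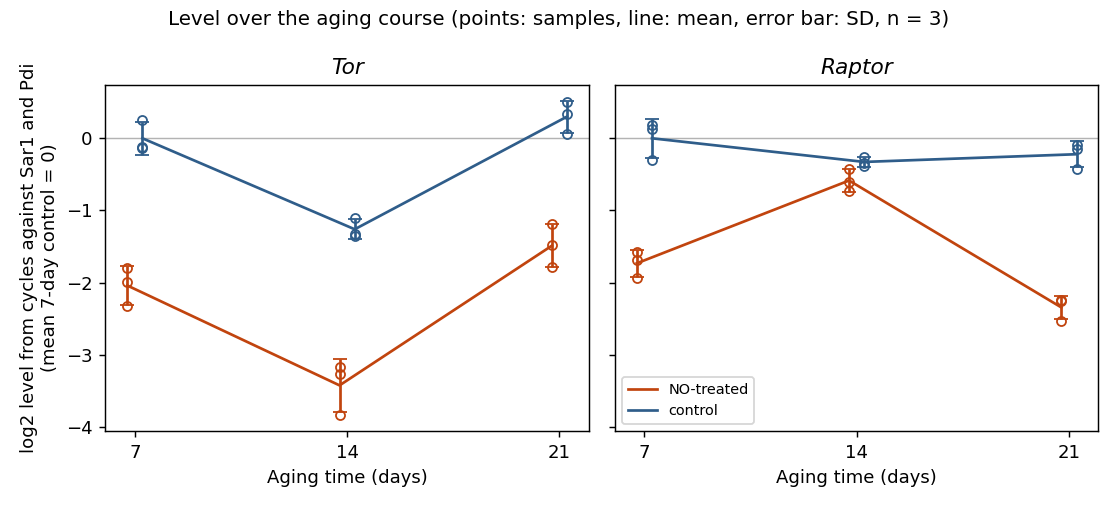
Log2 level of Tor and Raptor from cycles against Sar1 and Pdi (y axis, mean 7-day control at 0) over the aging time (x axis, days) in NO-treated and control axes, with open points for samples, lines through the means and error bars for the SD. Tor has its minimum at 14 days in both, at -3.42 with NO and -1.26 in the control, while Raptor in NO-treated axes has its maximum there, at -0.59.

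Ordered by level, Tor was highest in control axes at 21 days, then in control axes at 7 and 14 days, and lowest in NO-treated axes at 21, 7 and 14 days. Neighbours in this order that did not pass the test were the 21-day and 7-day controls (log2 difference 0.30, adjusted p = 0.135 from limma) and the 14-day control and 21-day NO-treated axes (log2 difference 0.23, 95% confidence interval -0.14 to 0.59, adjusted p = 0.214). Raptor was highest in control axes at 7, 21 and 14 days, followed by NO-treated axes at 14, 7 and 21 days. None of the 3 steps among the first 4 of these groups passed the test, with log2 differences of 0.22 (adjusted p = 0.168), 0.11 (adjusted p = 0.496) and 0.26 (adjusted p = 0.156). The next step down, of 1.15 to the 7-day NO-treated axes, and the last one, of 0.61, did. This order holds for levels against Sar1 and Pdi. Raptor in NO-treated axes at 21 against 7 days was called in 3 of 5 normalizations, with a range of -1.29 to 0.23. Tor at 21 against 7 days ranged from -0.13 to 1.39 in NO-treated axes and from -0.20 to 0.77 in control axes. The order of these groups thus depended on the normalizer.

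The ratio of Tor to Raptor within a sample needs no reference gene. It came from the difference of the 2 cycles, taking 1 cycle as 1 doubling, and the mean log2 ratio of the 7-day control was the zero point, so that only differences between groups are read. The ratio from relative expression deviated from it within a day by a root mean square of 0.0359 on the log2 scale.

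At 14 days the ratio was 0.149, 0.173 and 0.106 in NO-treated axes, against 0.477, 0.496 and 0.608 in control axes. Those NO-treated samples were the lowest of all 18. The mean was 0.143 ± 0.0339 with NO and 0.527 ± 0.0711 in the control (SD, n = 3 each), a log2 difference of -1.91 without overlap (p = 0.1 in the two-sided exact permutation of 3 and 3 samples, the lower limit of this design).

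At 7 days it was 0.960, 0.859 and 0.640 with NO, against 1.10, 1.14 and 0.802 in the control, with means of 0.820 ± 0.163 with NO and 1.01 ± 0.182 in the control (SD, n = 3 each). The groups overlapped, with a log2 difference of -0.31 (exact permutation test, two-sided, p = 0.3). At 21 days it was 1.67, 2.09 and 1.69 with NO, against 1.39, 1.51 and 1.41 in the control, with means of 1.82 ± 0.236 with NO and 1.44 ± 0.0670 in the control (SD, n = 3 each). Here the NO-treated samples were the higher ones, with a log2 difference of 0.33 (exact permutation test, two-sided, p = 0.1). Over the 3 times together, the mean log2 difference with NO was -0.63 and did not pass the threshold (exact permutation within day, two-sided, p = 0.0542, and 0.0542 adjusted over the 3 values tested in this way).

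The ratio differed between aging times. In both treatments it was lowest at 14 and highest at 21 days, without overlap of the 14-day or the 21-day samples with those of another time. An exact permutation of the 9 samples over the 3 times gave p = 0.00357 in NO-treated axes and p = 0.00357 in control axes, the smallest that 1680 arrangements allow. The log2 ratio at 21 minus that at 14 days was 3.69 in NO-treated axes and 1.45 in control axes. With the ratio as a further row in limma, the log2 difference in the NO effect was 2.24 for 21 against 14 days (standard error 0.25, adjusted p = 6.46e-09) and -1.60 for 14 against 7 days (standard error 0.25, adjusted p = 2.71e-06).

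**Figure D5:**
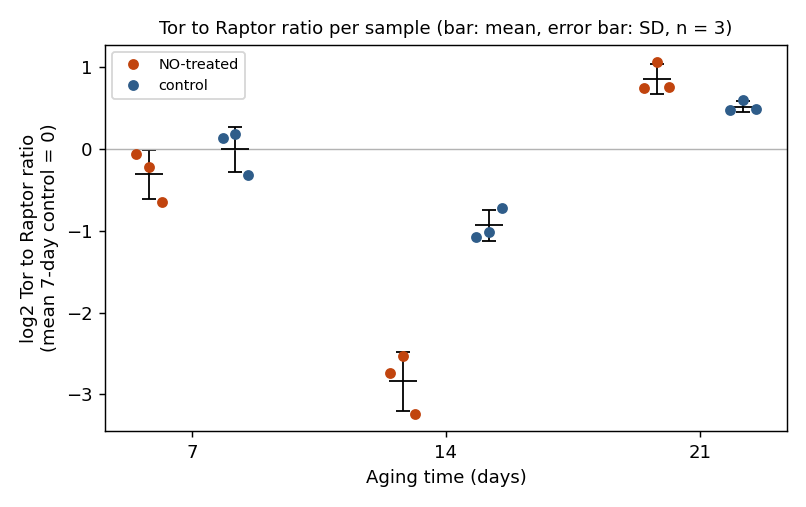
Log2 Tor to Raptor ratio from cycles (y axis, mean 7-day control at 0) in NO-treated and control axes at each aging time (x axis, days), with a point for each sample, a horizontal tick for the mean and an error bar for the SD. The mean is -2.84 with NO and -0.93 in the control at 14 days, and 0.86 with NO and 0.52 in the control at 21 days.

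Saur, an auxin-responsive gene of the small auxin up-regulated RNA family, was the other growth-related gene measured. Its relative expression was 1.11 ± 0.139 with NO and 1.005 ± 0.122 in the control at 7 days (SD, n = 3 each), where it was not called (log2 fold change 0.14, adjusted p = 0.297 from limma). At 14 days it was 0.641 ± 0.0373 with NO and 1.001 ± 0.0644 in the control (log2 fold change -0.64, adjusted p = 5.67e-05), and at 21 days 1.50 ± 0.1004 with NO and 1.003 ± 0.0919 in the control (log2 fold change 0.59, adjusted p = 2.17e-04). Of the 3 genes Tor, Raptor and Saur, 2 were thus called lower with NO at each time, namely Tor and Raptor at 7 and 21 days and Tor and Saur at 14 days, and 1, Saur, was called higher at 21 days. Over all 18 genes, 16.7%, 27.8% and 27.8% were called lower at 7, 14 and 21 days, and 16.7% were called higher at each time.

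No other target gene tracked either of the pair closely. Likeness was measured as the SD over the 18 samples of the difference in cycles, which needs no reference gene. The closest to Tor were Cpn60b, a mitochondrial-type chaperonin gene (1.05 cycles), Saur (1.14 cycles) and the desiccation-protection gene Lea2b (1.17 cycles), against an SD of 1.39 cycles for Tor itself. The closest to Raptor were the chaperone gene Hsp70a (0.771 cycles) and the Lea genes Lea1 (0.816 cycles) and Lea4 (0.826 cycles), against an SD of 0.898 cycles for Raptor itself. Tor and Raptor differed from each other with an SD of 1.26 cycles, which placed Raptor at rank 5 for Tor and Tor at rank 15 for Raptor among the 17 other genes.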

How the data were processed

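RT-qPCR with SYBR Green was run on cDNA of 18 samples in 3 technical repetitions, per the labels. The authors deposited quantification cycles (Cq, not normalized) and relative expression, a ratio to 2 reference genes set to about 1 in the control of each aging time. They also deposited control values, a ratio scaled to the 7-day control. Amplification efficiencies and the handling of technical repetitions are not given in the sources used here. A table of the authors' own fold changes was not used.

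Groups and replicate numbers came from the sample titles. Log2 relative expression and log2 levels from cycles (1 doubling per cycle) were fitted with limma 3.58.1 in R 4.3.3, with 6 groups and no filter, and adjusted by Benjamini-Hochberg over 18 genes. The fit was tested on simulated data. Single values were tested by exact permutation. Genes named were Tor, Raptor, Saur and, for each of the pair, the 3 genes of most similar cycles. Pimt, Hsp70b and Hsp70c were named outside this rule, after their values were seen. Pimt had the lowest fold change with NO at 14 days, and Hsp70b had the lowest from cycles at 21 days. Hsp70c had the lowest change in the comparisons of days where it is named. These members, lists and tests were chosen with earlier results of these data known. Alternatives covered other reference genes, linear values, unmoderated tests, the methods' t-test (also adjusted), a replicate block, the normalizer implied by relative expression, amplification of 1.9 per cycle and leaving out each sample. Depth does not apply to cycles, and the number of replicates limits the precision.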

Additional observations from a re-analysis of the deposited data

Results flagged for a closer look

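Tests of the difference in the NO effect between aging times picked out 5 values. The effect on Raptor at 14 days minus that at 7 days was 1.28 on the log2 scale, a weaker lowering at 14 days. The effect on Raptor at 21 days minus that at 14 days was -1.74. For the Tor to Raptor ratio, tested as a further row in limma, the effect at 14 minus that at 7 days was -1.60, that at 21 minus that at 14 days was 2.24, and that at 21 minus that at 7 days was 0.64 (standard error 0.25, adjusted p = 0.0482). The ratio is made of the same cycles as Raptor, so its values are not separate evidence. Single outlying samples were not tested in these groups of 3.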

How the results depend on the processing

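Over 34 results, 781 of 814 values under alternatives kept the direction and the side of the threshold or, for the ratio, stayed within 1 SD, and 25 results did so under each alternative run. Among these were the NO effects on Tor at all times and on Raptor at 7 and 21 days, also with the methods' t-test. The ratio results were among them as well, under the 1 SD rule. Leaving out a sample of a group that was not compared cannot move an estimate. Part of the 781 was therefore fixed in advance, and the count overstates the stability. With the replicate block, 34 of 34 values stayed the same in this sense. Those of the ratio were judged by the 1 SD rule and not by a call. Each group held every replicate number, so the block could move the p-value of a limma estimate but not the estimate. Ratio values judged by a limma estimate could therefore not change. Tor at 7 days stayed at -1.71 (adjusted p = 2.62e-07 from limma). For the ratio over 3 days, p was 0.141 by exact sign changes of paired differences. Same-numbered NO-treated and control samples deviated together in 4 of 9 pairs (correlation over 18 genes above 0.1, range -0.33 to 0.49). Differently numbered pairs of a day ranged from -0.62 to 0.41. With 3 samples per group these correlations cannot tell whether same-numbered samples share an origin.

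With Sar1 alone, Raptor with NO at 14 days was called at -0.39, Tor in controls at 21 against 7 days turned to -0.024, Raptor there was called at -0.55 and at 21 against 14 days turned to -0.087, and Tor in NO-treated axes at 21 against 7 days lost its call at 0.22. With Pdi alone, Raptor in controls lost its call at 14 against 7 days (-0.20) and turned to 0.10 at 21 against 7 days, Tor there was called at 0.62, and Raptor in NO-treated axes at 21 against 7 days lost its call at -0.28. Without a reference gene, Tor at 21 against 7 days turned to -0.20 in controls and -0.13 in NO-treated axes, and Raptor in controls was called at -0.73 for 21 against 7 and 0.33 for 21 against 14 days. The deposited 7-day-scaled values gave -0.20 for Tor, and -0.73 and 0.33 for Raptor. Centred on the 18 genes, Raptor in controls turned to 0.00364 at 14 against 7 and 0.25 at 21 against 7 days, and to 0.23 in NO-treated axes at 21 against 7 days, while Tor in controls at 21 against 7 days was called at 0.77. Raptor in controls at 14 against 7 days, -0.33, lost its call without moderation (adjusted p = 0.0629) and with only the samples of the compared groups (adjusted p = 0.0945). The cause was not tested.

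Leaving out each sample in turn gave -0.48 to -0.24 for Raptor in controls at 14 against 7 days, -0.37 to -0.12 for it at 21 against 7 days (called without control replicate 2 of 7 days, adjusted p = 0.022), 0.20 to 0.43 for Tor in controls at 21 against 7 days (called without control replicate 1 of 7 days, adjusted p = 0.0439) and 0.40 to 0.70 for Tor in NO-treated axes at 21 against 7 days. The difference of the NO effect at 21 minus 7 days ran from -0.69 to -0.30 for Raptor (called without NO replicate 1 of 7 days, adjusted p = 0.0151), and that at 21 minus 14 days from 0.29 to 0.67 for Tor (called when replicate 1 of the 14-day NO-treated axes was left out, at 0.67 with adjusted p = 0.0349, or replicate 2 of the 14-day controls, at 0.65 with 0.0354).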
